A study of Mus musculus with 6 samples.

Results

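The genes described here are those whose lung transcript level moved the same way after HRF challenge in each of 3 mouse genotypes. HRF (histamine-releasing factor), a protein that cells secrete and Tpt1 encodes, was given to mice through the nose as mHRF-His, and the control mice received PBS. Each challenge was applied to mice labelled FcRg KO (FcRg-/-), mice labelled FceRIa-/- (titled FceRla KO, called FceRIa KO here) and wild type (WT) mice, all on the C57BL/6 strain, and RNA of homogenised whole lung was hybridised to 1 array per group, 6 arrays in all. The labels give no dose, no time after challenge and no number of mice per array, nor which part of a gene was deleted. The 3 HRF arrays were set against the 3 PBS arrays of the same genotype label, which gave 3 pairs that share no array. A level is the log2 signal minus the log2 of that array's 75th percentile, so that 0 marks the 75th percentile, and a ratio is the HRF level minus the PBS level of a pair, on the log2 scale. Of 19749 named genes, 15679 were well above background on all 6 arrays, and 6091 of these moved the same way in all 3 pairs. The size of a shared difference is the smallest of the 3 absolute ratios.

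HRF is released during allergic inflammation and can bind immunoglobulins, IgE among them. IgE acts on mast cells and basophils through a high-affinity receptor whose alpha chain (Fcer1a) holds the antibody and whose gamma chain (Fcer1g) carries the signal, for this and several other Fc receptors. Type 2 inflammation of the airway is known for chemokines that draw eosinophils and T helper cells, for alternatively activated macrophages and for mucus from goblet cells, whereas neutrophil chemokines and acute phase proteins belong to a response shared with many injuries.

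Between 67.5% and 79.6% of 59305 spots per array were well above background and none was saturated. Each group is 1 array, so no ratio within a genotype was repeated, and precision is limited by how few arrays there are. All 6 arrays lay on 1 slide. Neither knockout label is borne out by its gene. Fcer1g stood at 4.32 (FcRg KO), 4.45 (FceRIa KO) and 4.61 (WT) on the HRF arrays, against 4.14, 4.07 and 3.93 on the PBS arrays of the same labels. Fcer1a stood at -4.38 (FcRg KO), -1.16 (FceRIa KO) and -4.19 (WT) on the HRF arrays, against -4.70, -0.90 and -4.48 on the PBS arrays of the same labels, so it was highest on the arrays labelled FceRIa KO. Whether the probes lie inside the deleted parts is not known, and a probe outside them checks nothing. The groups are called by their labels. Tpt1, the gene of HRF itself, had ratios of 0.23 (FcRg KO), 0.27 (FceRIa KO) and 0.11 (WT), the last of which is -0.07 under normexp background correction with quantile normalization. All 8 lung markers, such as Sftpc and Scgb1a1, were well above background on every array, and the markers of atrial muscle, which lines pulmonary veins in mice, were bright too, while liver, thymus, oesophagus and skeletal muscle markers summed to between 0.04 and 2.16 times the 75th percentile. Fat markers were uneven, with a summed signal of 6.34 (FcRg KO), 18.5 (FceRIa KO) and 10.5 (WT) times the 75th percentile on the HRF arrays, against 40.1, 7.18 and 9.75 on the PBS arrays of the same labels.

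Genes that were higher on the HRF array in all 3 pairs numbered 2769 (17.7% of those compared), and 3322 (21.2%) were lower in all 3. Fewer cells of a type and less RNA per cell cannot be told apart in whole lung. Few of these shared differences were large. At a ratio of at least 1.5-fold in every pair, 33 genes were higher (0.21%) and 5 were lower (0.0319%). At 2-fold, 6 genes were higher (0.0383%) and none was lower (0.0%). In single pairs, 2-fold higher genes numbered 80 of 15679 with the FcRg KO label (0.51%), 176 with the FceRIa KO label (1.12%) and 350 in WT (2.23%), and 2-fold lower genes numbered 156 (0.995%), 31 (0.198%) and 134 (0.855%) in those pairs. The split of shared genes between higher and lower rests on the scaling, since 45.5% of them were higher with the 75th percentile and 69.8% with the array's median in its place. That median scaling shifts the median of all ratios to -0.04 (FcRg KO), 0.04 (FceRIa KO) and 0.19 (WT).

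The count of shared genes varied with the level of the gene. Among 8581 genes with a mean level of at least 0, 1865 were higher and 1733 lower in all 3 pairs. Among 2619 genes with a mean level under -3, 236 were higher and 564 lower. In that dim class, 48.3% (FcRg KO), 52.8% (FceRIa KO) and 73.6% (WT) of the genes were lower on the HRF array, and WT was thus the pair in which dim genes were mostly lower. Across all genes compared, the ratios of the WT pair correlated with those of the FceRIa KO pair at r = 0.44 (rho 0.37) and with those of the FcRg KO pair at r = 0.12 (rho 0.10). The ratios of the FcRg KO and FceRIa KO pairs correlated at r = 0.05 (rho 0.21). These are correlations over genes, which are not independent replicates, and all arrays share a slide.

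**Figure D1:**
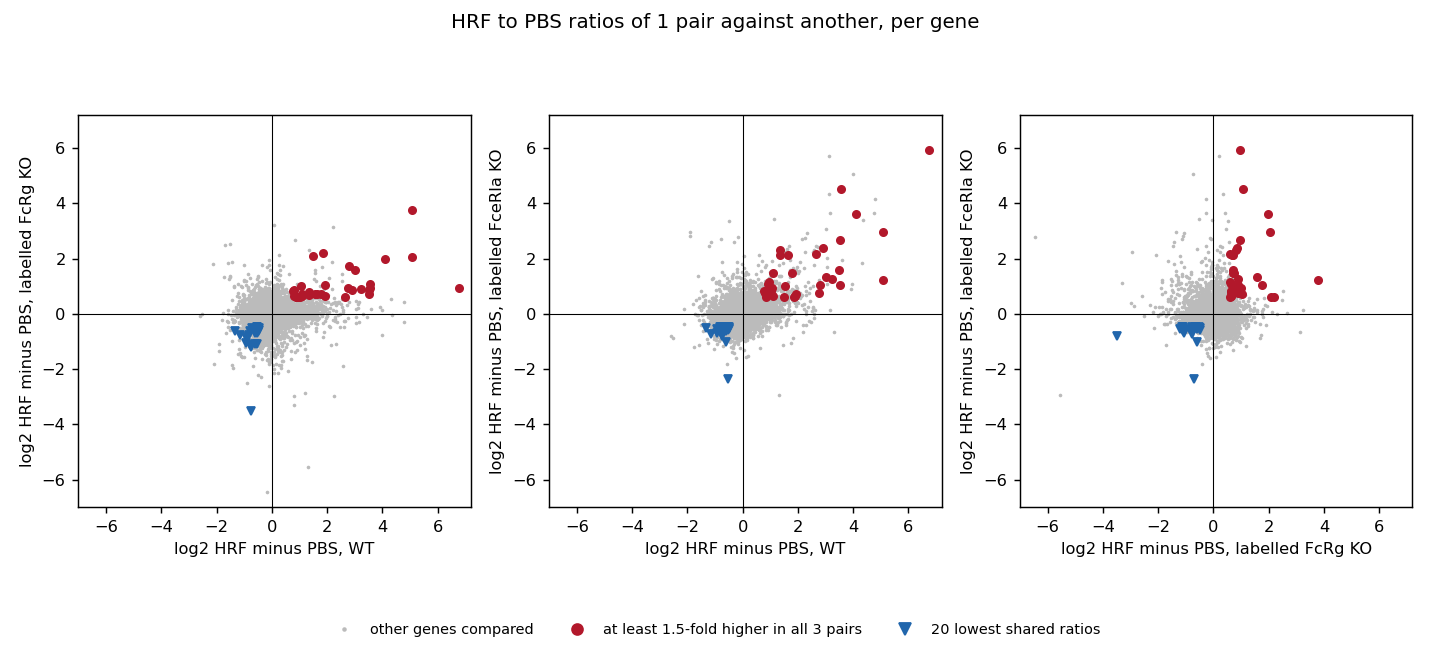
Each panel sets the log2 HRF to PBS ratio of 1 pair (horizontal axis) against that of another (vertical axis), with 1 point per gene for 15679 genes. Red circles are the 33 genes at least 1.5-fold higher in all 3 pairs and blue triangles the 20 lowest shared ratios. The red genes spread farthest along the WT axis and stay closest to 0 along the FcRg KO axis.

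Because the pairs share no array, the genes picked in any 2 pairs could be read in the pair left over. This was chosen after seeing the data and uses the same ratios that ordered the genes, so it is a description and no test. Exactly 6 genes were at least 2-fold higher in both labelled knockout pairs, and in WT all 6 were at least 2-fold higher, with ratios of 2.81 to 5.08 and a median of 3.84. They are the same 6 genes that were counted above as at least 2-fold higher in every pair. Over all genes, 45.0% were higher in WT and 2.23% at least 2-fold higher. This reading needs genes measured on all 6 arrays, since among genes above background on any array 52 were so chosen and 38.5% of them were higher in WT. The 82 genes at least 2-fold higher in the FceRIa KO and WT pairs gave a weaker picture in the FcRg KO pair, where 51 were higher and 31 lower, with a median ratio of 0.20, beside a median of 0.00 over all genes, and where 6 reached 2-fold higher and 5 reached 2-fold lower. The 21 genes chosen in the FcRg KO and WT pairs had a median of 0.53 in the FceRIa KO pair, and 15 of them were higher there, against 47.3% of all genes. In the lower direction nothing carried over at 2-fold. Of 11 genes at least 2-fold lower in the FcRg KO and WT pairs, 9 were higher in the FceRIa KO pair, 5 of them at least 2-fold. Of 4 genes so chosen in the FceRIa KO and WT pairs, 3 were lower in the FcRg KO pair. The 2 genes at least 2-fold lower in both labelled knockout pairs were Cyp26b1, which degrades retinoic acid, and Lrat, which esterifies retinol, and both were higher in WT. The Cyp26b1 level was -0.87 (FcRg KO), 1.85 (FceRIa KO) and 2.64 (WT) on the HRF arrays, against 4.69, 4.78 and 1.31 on the PBS arrays of the same labels. Lrat had ratios of -1.73 (FcRg KO), -1.14 (FceRIa KO) and 1.47 (WT).

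For most of the genes higher in all 3 pairs by at least 1.5-fold, the FcRg KO pair had the smallest ratio. Among these 33 genes the smallest ratio was that of the FcRg KO pair for 23, of the FceRIa KO pair for 9 and of WT for 1. The largest ratio was that of the FcRg KO pair for 3, of the FceRIa KO pair for 8 and of WT for 22. Without the FcRg KO pair, 207 genes were at least 1.5-fold higher in the other pairs, against 73 without the FceRIa KO pair and 53 without WT. Median ratios over the 33 were 0.85 (FcRg KO), 1.16 (FceRIa KO) and 1.85 (WT). For 24 of the 33, every HRF array stood above every PBS array, which 6.55% of all genes compared did. The rule picked these genes by their ratios, so neither figure is a test.

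**Figure D2:**
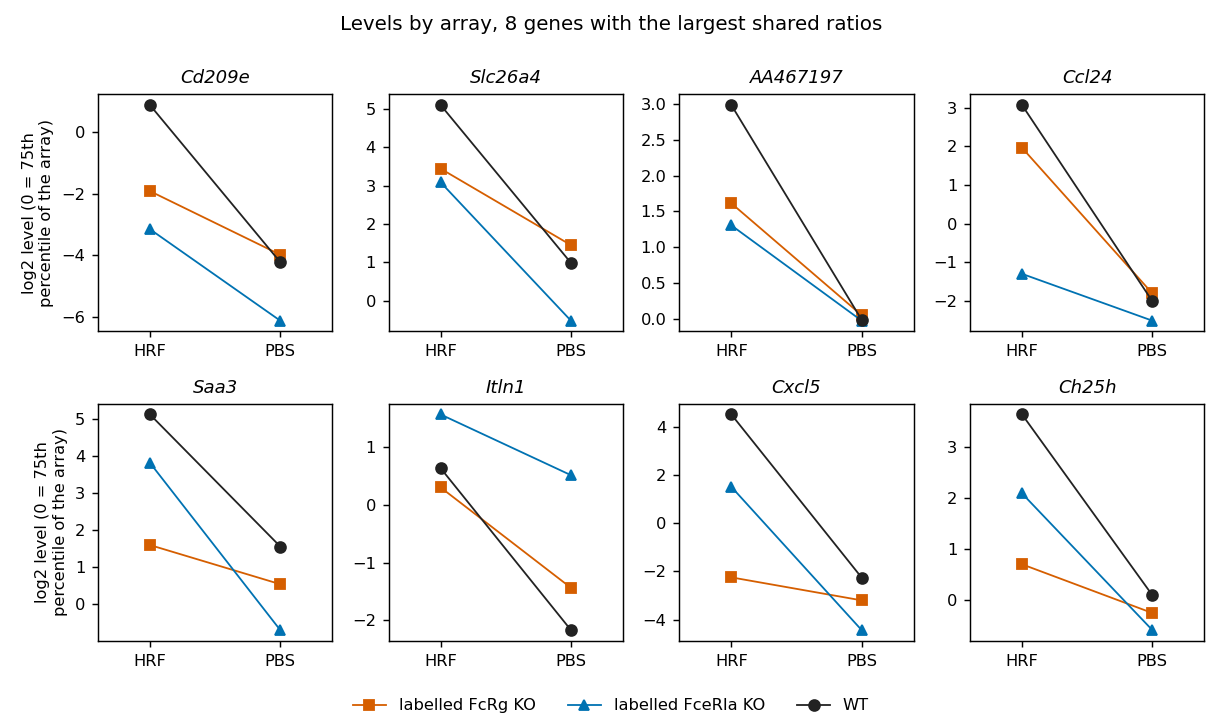
Log2 level (vertical axis, 0 at the array's 75th percentile) on the HRF arrays (left) and PBS arrays (right) for 8 genes, with 1 line per genotype label. In all 8 panels each line is higher at HRF, and in the Itln1 panel the PBS level of the FceRIa KO label lies among the HRF levels of the other labels.

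Roles of the 33 genes were given after the genes were known, and the share of each role among all genes was not counted. Chemokines made up 6 of the 33, with median ratios of 0.86 (FcRg KO), 2.14 (FceRIa KO) and 3.20 (WT). Ccl24, an eosinophil attractant, stood at 1.96 (FcRg KO), -1.30 (FceRIa KO) and 3.07 (WT) on the HRF arrays, against -1.81, -2.52 and -2.01 on the PBS arrays of the same labels. Its ratios were 3.77 (FcRg KO), 1.22 (FceRIa KO) and 5.08 (WT), smallest with the FceRIa KO label. Cxcl5, a neutrophil attractant made by airway epithelium, stood at -2.25 (FcRg KO), 1.503 (FceRIa KO) and 4.503 (WT) on the HRF arrays, against -3.20, -4.43 and -2.26 on the PBS arrays of the same labels. The FcRg KO pair had a Cxcl5 ratio of 0.95, just under 2-fold, while the fold was 61.2 with the FceRIa KO label and 108 in WT, and the HRF array labelled FcRg KO lay level with the WT PBS array. Ccl11, another eosinophil attractant, stood at -0.19 (FcRg KO), -0.45 (FceRIa KO) and 2.63 (WT) on the HRF arrays, against -1.06, -1.48 and -0.88 on the PBS arrays of the same labels. Ccl17, a ligand of a receptor on T helper cells, stood at 2.68 (FcRg KO), 3.65 (FceRIa KO) and 4.83 (WT) on the HRF arrays, against 1.84, 1.27 and 1.95 on the PBS arrays of the same labels. Both had their smallest ratio in the FcRg KO pair, 0.87 for Ccl11 and 0.85 for Ccl17. Ccl9 and Ccl12, which draw monocytes and other myeloid cells, had ratios of 0.72 (FcRg KO), 2.13 (FceRIa KO) and 1.65 (WT) and of 0.60 (FcRg KO), 2.15 (FceRIa KO) and 2.65 (WT). For all 6 chemokines every HRF array stood above every PBS array, as for 6.55% of all genes compared, but the 6 were picked by their ratios. For Cxcl5 this rests on -2.247 (FcRg KO, HRF) against -2.256 (WT, PBS).

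Genes of airway epithelium and mucous secretion made up 4 of the 33, with median ratios of 1.18 (FcRg KO), 0.85 (FceRIa KO) and 2.36 (WT). Slc26a4 encodes pendrin, an anion exchanger of the airway surface. It stood at 3.44 (FcRg KO), 3.08 (FceRIa KO) and 5.10 (WT) on the HRF arrays, against 1.45, -0.52 and 0.99 on the PBS arrays of the same labels, with ratios of 1.99 (FcRg KO), 3.60 (FceRIa KO) and 4.11 (WT), and it was 3.97-fold higher in the pair where it differed least. Itln1, a lectin secreted by goblet cells, stood at 0.30 (FcRg KO), 1.57 (FceRIa KO) and 0.64 (WT) on the HRF arrays, against -1.44, 0.52 and -2.17 on the PBS arrays of the same labels. Every pair was higher with HRF, but the arrays overlap, since the PBS array labelled FceRIa KO lay above the HRF array labelled FcRg KO. Its ratios were 1.74 (FcRg KO), 1.05 (FceRIa KO) and 2.81 (WT), and a second Itln1 probe was higher in all 3 pairs too. Spdef and Foxa3, transcription factors of goblet cell differentiation, had ratios of 0.63 (FcRg KO), 0.65 (FceRIa KO) and 1.91 (WT) and of 0.61 (FcRg KO), 0.61 (FceRIa KO) and 0.86 (WT). The Foxa3 arrays overlap, because the FceRIa KO label was lower under both challenges. Under normexp both Spdef and Foxa3 fell short of 1.5-fold in at least 1 pair.

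The gene lists, such as the wider one of goblet cell and mucous genes, were chosen with earlier results of these data known. Their counts are therefore no independent test. Of that wider list, 6 of 17 measured members were higher in all 3 pairs and none was lower, beside 17.7% and 21.2% of all genes. The other 2 of the 6 were Tff2, a trefoil peptide of mucous cells, and Bpifb1, a secreted airway protein, with smallest ratios of 0.05 and 0.08. Bpifb1 turned to -0.09 under normexp. Median ratios of the list were 0.63 (FcRg KO), -0.01 (FceRIa KO) and 0.86 (WT), and the FceRIa KO median is 0.04 with median scaling. Muc5ac, the gel-forming mucin of goblet cells, stood at -0.62 (FcRg KO), -2.57 (FceRIa KO) and -0.17 (WT) on the HRF arrays, against -2.11, -2.27 and -1.76 on the PBS arrays of the same labels. Thus Muc5ac was higher on the HRF array with the FcRg KO label and in WT but not with the FceRIa KO label. Clca1, a secreted goblet cell protein, had the same pattern, with ratios of 1.89 (FcRg KO), -0.41 (FceRIa KO) and 2.18 (WT), and so had Fcgbp, a mucus protein, with ratios of 1.20 (FcRg KO), -0.22 (FceRIa KO) and 1.61 (WT). Whether these ratios differ between genotype labels was not tested.

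Cd209e, a C-type lectin of the family that holds the dendritic cell receptor DC-SIGN, had the largest shared ratio of all genes. It stood at -1.92 (FcRg KO), -3.15 (FceRIa KO) and 0.86 (WT) on the HRF arrays, against -3.98, -6.11 and -4.22 on the PBS arrays of the same labels. The ratios were 2.05 (FcRg KO), 2.95 (FceRIa KO) and 5.08 (WT), which is 4.15-fold in the pair where it differed least. The 3 HRF arrays all stood above the 3 PBS arrays, but a requirement of a mean level of at least -3 leaves Cd209e out. Other membrane proteins of myeloid cells were Dcstamp, Clec4n, Mcoln2, Ly6i and Ly6f. Dcstamp, which macrophages need to fuse into giant cells, stood at -2.63 (FcRg KO), -3.24 (FceRIa KO) and -2.65 (WT) on the HRF arrays, against -3.63, -4.16 and -3.72 on the PBS arrays of the same labels. Its 3 ratios, 0.999 (FcRg KO), 0.92 (FceRIa KO) and 1.07 (WT), lay close together, with the FceRIa KO pair lowest. Clec4n, the fungal receptor dectin-2, had ratios of 0.62 (FcRg KO), 1.06 (FceRIa KO) and 0.91 (WT). Mcoln2, a channel of endosomes and lysosomes, had ratios of 0.95 (FcRg KO), 0.77 (FceRIa KO) and 2.75 (WT). Ly6i and Ly6f had nearly the same ratios, 0.80 (FcRg KO), 2.29 (FceRIa KO) and 1.34 (WT) and 0.68 (FcRg KO), 2.11 (FceRIa KO) and 1.35 (WT). They are close paralogues, and whether their probes read the same transcripts was not tested.

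Saa3, an acute phase apolipoprotein that is made in lung tissue as well as in fat and macrophages, stood at 1.60 (FcRg KO), 3.82 (FceRIa KO) and 5.13 (WT) on the HRF arrays, against 0.55, -0.69 and 1.56 on the PBS arrays of the same labels. Its ratios were 1.06 (FcRg KO), 4.52 (FceRIa KO) and 3.57 (WT), and the HRF array labelled FcRg KO lay just above the WT PBS array. The Saa1 and Saa2 genes, close relatives of Saa3, were higher in all 3 pairs too, with ratios of 0.46 (FcRg KO), 3.07 (FceRIa KO) and 3.03 (WT) for Saa1. Timp1, an inhibitor of matrix metalloproteinases, stood at 2.78 (FcRg KO), 2.34 (FceRIa KO) and 5.16 (WT) on the HRF arrays, against 1.89, 1.07 and 1.92 on the PBS arrays of the same labels. Serpina3f, a serine protease inhibitor from a cluster of similar genes, had ratios of 0.71 (FcRg KO), 1.60 (FceRIa KO) and 3.51 (WT). Il1rn, which blocks the interleukin 1 receptor, had ratios of 0.72 (FcRg KO), 1.01 (FceRIa KO) and 1.55 (WT). In this group the FcRg KO pair was the lowest for all 4 genes.

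Lymphocyte membrane proteins made up 3 of the 33, and under normexp all 3 fell short of 1.5-fold in at least 1 pair. Fcer2a, the low-affinity IgE receptor of B cells, stood at -2.60 (FcRg KO), 0.31 (FceRIa KO) and 0.41 (WT) on the HRF arrays, against -3.25, -0.49 and -0.40 on the PBS arrays of the same labels. Its ratios were nearly equal, 0.65 (FcRg KO), 0.80 (FceRIa KO) and 0.81 (WT), although both arrays labelled FcRg KO lay far under the others. Cd69, an early marker of lymphocyte activation, had ratios of 0.59 (FcRg KO), 1.16 (FceRIa KO) and 0.96 (WT). P2ry10, a receptor for lysophosphatidylserine, had ratios of 0.65 (FcRg KO), 0.66 (FceRIa KO) and 1.10 (WT).

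The remaining genes have mixed roles. AA467197, the mouse counterpart of a human gene for a small mitochondrial protein (NMES1), had nearly the same level on the 3 PBS arrays. It stood at 1.61 (FcRg KO), 1.31 (FceRIa KO) and 2.99 (WT) on the HRF arrays, against 0.05, -0.03 and -0.02 on the PBS arrays of the same labels. Areg, a ligand of the epidermal growth factor receptor, stood at -1.79 (FcRg KO), -2.10 (FceRIa KO) and -1.27 (WT) on the HRF arrays, against -2.62, -2.95 and -2.05 on the PBS arrays of the same labels. The 3 Areg ratios, 0.83 (FcRg KO), 0.84 (FceRIa KO) and 0.78 (WT), lay close together, yet the arrays overlap because each label had its own PBS level. Aadac, an esterase, was as even, with ratios of 0.88 (FcRg KO), 0.75 (FceRIa KO) and 0.80 (WT). Ch25h, which makes an oxysterol from cholesterol, had ratios of 0.95 (FcRg KO), 2.67 (FceRIa KO) and 3.54 (WT). Slc7a2, a carrier of arginine, had ratios of 0.73 (FcRg KO), 1.46 (FceRIa KO) and 1.09 (WT), and Cebpd, a transcription factor of the acute phase, had ratios of 0.70 (FcRg KO), 1.49 (FceRIa KO) and 1.79 (WT). Its levels were 5.41 to 6.43 on the HRF arrays, against 4.64 to 4.71 on the PBS arrays. Scin, Noxa1, Bcl2l15 and Fxyd4 completed the 33, with smallest ratios of 0.59 to 0.70. Fxyd4, a regulator of the sodium pump, and Bcl2l15 were the members with their largest ratio in the FcRg KO pair besides Aadac, at 2.195 (Fxyd4) and 2.08 (Bcl2l15).

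**Figure D3:**
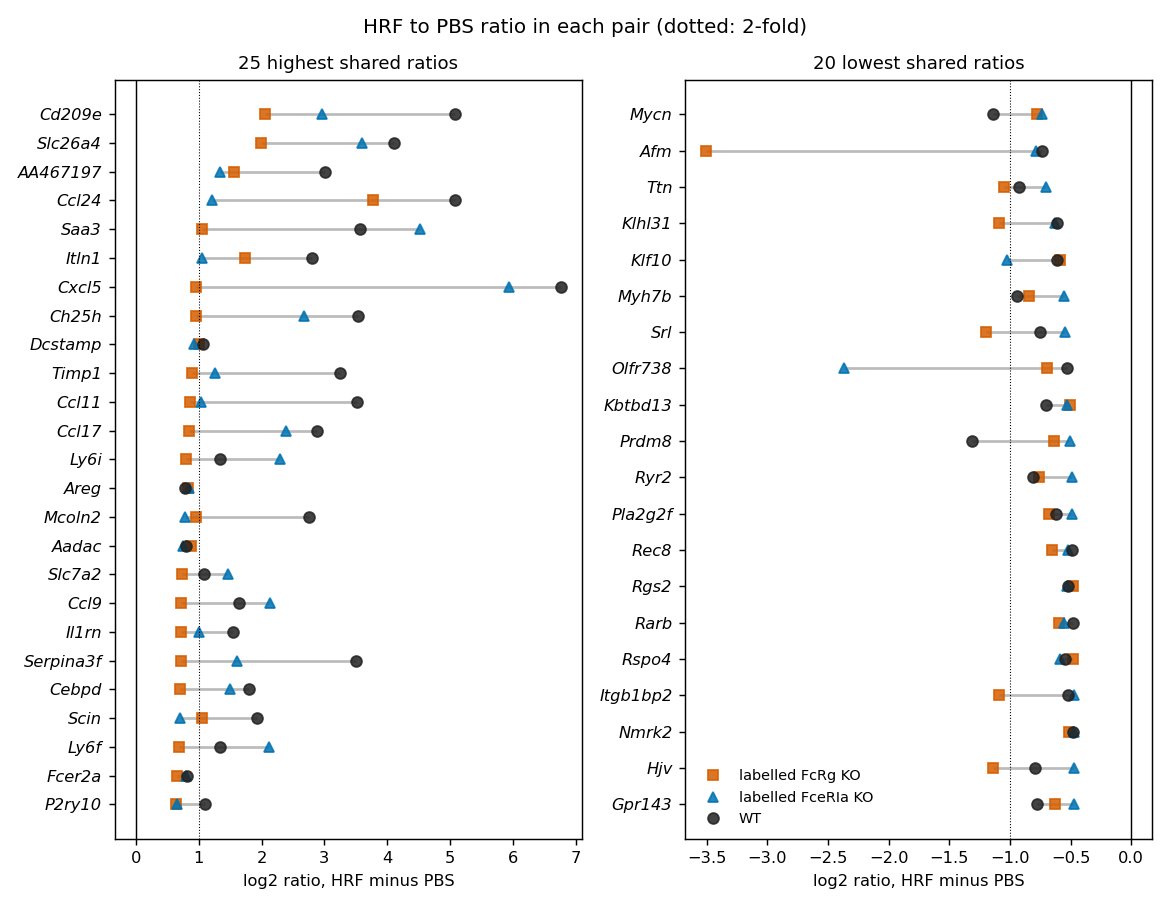
Log2 HRF to PBS ratio (horizontal axis) of the 25 highest (left) and 20 lowest (right) shared genes, with 1 marker per genotype label and the dotted line at 2-fold. On the left the FcRg KO marker lies left of the WT marker for every gene but Areg and Aadac, and on the right Afm and Olfr738 reach -3.50 and -2.37 in 1 labelled knockout pair each.

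The genes just past the 2-fold threshold were Saa3 and Itln1, with smallest ratios of 1.06 and 1.05, and those just short of it were Cxcl5 and Ch25h, both at 0.95, and Dcstamp at 0.92.

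Promoter sequence is shown for genes whose levels moved together. RefSeq windows of assembly GRCm38.p6, which run 250 bases before to 50 bases after a start site, were found for 24 of the 33 genes, for 15 of the 20 lowest and for 12460 of all genes compared. A gene was counted where any of its windows held the letters on either strand. The TATA box letters TATAAA were in 10 of 24 (41.7%), against 10.7% of all genes. The letters TTGCNNAA, which C/EBP factors such as the Cebpd product bind, were in 7 of 24 (29.2%), against 10.9%. TTC and GAA with 4 bases between them, known for STAT6, were in 4 of 24 (16.7%), namely Ccl17, Cd209e, Fcer2a and Il1rn, against 6.69%. The general STAT letters TTCNNNGAA were in 2 of 24 (8.33%), against 8.57%, and the NF-kB letters, GGGA and TTTCC with 1 base between them, in 0 of 24, against 0.554%. These are letter matches, not sites of binding. The window of Cd209e, on the minus strand at chr8:3854237-3854536, holds the STAT6 letters 79 bases before the start, that of Slc26a4 (minus strand, chr12:31559935-31560234) the TATA box 31 bases before it, and that of Saa3 (minus strand, chr7:46715627-46715926) the C/EBP letters 99 bases before it. They are given from 5′ to 3′, with the matched letters in capitals.
Cd209e: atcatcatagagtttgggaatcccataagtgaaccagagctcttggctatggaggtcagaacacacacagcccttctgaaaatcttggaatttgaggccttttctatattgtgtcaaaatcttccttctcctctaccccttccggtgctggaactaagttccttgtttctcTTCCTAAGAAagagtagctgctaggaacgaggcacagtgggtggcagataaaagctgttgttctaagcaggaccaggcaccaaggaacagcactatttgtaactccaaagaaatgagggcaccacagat
Slc26a4: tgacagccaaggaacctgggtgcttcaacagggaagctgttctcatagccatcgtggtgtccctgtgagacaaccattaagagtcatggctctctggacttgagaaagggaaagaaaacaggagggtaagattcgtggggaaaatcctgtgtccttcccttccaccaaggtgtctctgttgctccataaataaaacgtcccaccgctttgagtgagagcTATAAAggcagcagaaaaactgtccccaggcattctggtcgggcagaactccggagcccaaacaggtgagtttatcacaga
Saa3: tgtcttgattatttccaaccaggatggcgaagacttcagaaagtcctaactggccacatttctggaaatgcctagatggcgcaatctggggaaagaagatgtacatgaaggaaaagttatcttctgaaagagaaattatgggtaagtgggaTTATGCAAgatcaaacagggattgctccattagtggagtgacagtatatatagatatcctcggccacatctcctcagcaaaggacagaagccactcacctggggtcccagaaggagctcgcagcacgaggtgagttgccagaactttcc

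The lowest shared ratios were small. Of the 20 lowest shared genes, 9 encode proteins of striated muscle, a role given after the genes were known, and 14 of the 20 had every HRF array under every PBS array, which 7.78% of all genes did. The 20 were picked by these ratios, so the count is no test. Ttn, the giant spring of the sarcomere, stood at 0.18 (FcRg KO), -0.04 (FceRIa KO) and -0.02 (WT) on the HRF arrays, against 1.23, 0.66 and 0.90 on the PBS arrays of the same labels. Its ratios were -1.05 (FcRg KO), -0.70 (FceRIa KO) and -0.93 (WT), and 2 of its 3 other probes were lower in all 3 pairs. Ryr2, the calcium release channel of heart muscle, stood at -1.28 (FcRg KO), -1.18 (FceRIa KO) and -1.48 (WT) on the HRF arrays, against -0.52, -0.69 and -0.67 on the PBS arrays of the same labels. Myh7b, a myosin heavy chain, had ratios of -0.85 (FcRg KO), -0.55 (FceRIa KO) and -0.94 (WT), and Srl, a calcium-binding protein of the sarcoplasmic reticulum, of -1.20 (FcRg KO), -0.54 (FceRIa KO) and -0.75 (WT). The others were Klhl31, Kbtbd13, Itgb1bp2, Nmrk2 and Hjv, with smallest ratios of -0.61 to -0.47. Of these, a mean level of at least -3 leaves out all but Itgb1bp2. The medians of the 9 genes were -1.05 (FcRg KO), -0.53 (FceRIa KO) and -0.75 (WT).

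The list of atrial and pulmonary vein muscle genes went the same way. Like the other gene lists, it was chosen with earlier results of these data known, so its counts are no independent test. It also holds 1 gene at least 1.5-fold lower in all 3 pairs, which is itself among the lowest genes. Of 18 measured genes, 15 were lower in all 3 pairs and none was higher, beside 21.2% and 17.7% of all genes. In 11 of the 18 every HRF array was under every PBS array, beside 7.78% of all genes. Median ratios were -0.90 (FcRg KO), -0.18 (FceRIa KO) and -0.43 (WT), against medians of 0.00, -0.01 and -0.03 over all genes in the same pairs. Myh6, the atrial myosin heavy chain, stood at 6.08 (FcRg KO), 6.12 (FceRIa KO) and 6.22 (WT) on the HRF arrays, against 6.99, 6.47 and 6.78 on the PBS arrays of the same labels. Actc1, cardiac actin, stood at 5.72 (FcRg KO), 5.61 (FceRIa KO) and 5.58 (WT) on the HRF arrays, against 6.62, 5.91 and 6.09 on the PBS arrays of the same labels. In both genes the HRF arrays lay closer together than the PBS arrays, of which that labelled FcRg KO was highest. Nppa, the atrial natriuretic peptide, was an exception, with ratios of -1.83 (FcRg KO), 0.08 (FceRIa KO) and 0.15 (WT). The summed signal of 6 atrial markers was 238 (FcRg KO), 245 (FceRIa KO) and 247 (WT) times the 75th percentile on the HRF arrays, against 455, 284 and 329 on the PBS arrays of the same labels. The amount of vein or heart muscle in each lung sample was not measured separately, and its part in these ratios was not tested.

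Of 12 smooth muscle genes, 9 were lower in all 3 pairs and none was higher, beside 21.2% and 17.7% of all genes, with median ratios of -0.42 (FcRg KO), -0.20 (FceRIa KO) and -0.22 (WT). With the median scaling the WT median of that list was 0.00 and that of all genes 0.19. This scaling shifts every ratio of a pair by the same amount, so the distance between the list and all genes could not change. Under it Actg2, an actin of smooth muscle, turned to 0.05 in its smallest ratio. Smtn, smoothelin, stood at 3.13 (FcRg KO), 3.13 (FceRIa KO) and 2.99 (WT) on the HRF arrays, against 3.45, 3.50 and 3.37 on the PBS arrays of the same labels. Myh11, the smooth muscle myosin, had ratios of -0.39 (FcRg KO), -0.23 (FceRIa KO) and -0.63 (WT). Acta2, a common smooth muscle marker, had ratios of -0.45 (FcRg KO), 0.05 (FceRIa KO) and -0.05 (WT) and did not move the same way in the 3 pairs. The Ttn window on the minus strand at chr2:76982498-76982797 is shown because it holds CTA and TAG with 4 bases between them, bound by the muscle factor MEF2, 166 bases before the start. Those letters were in 2 of the 15 lowest genes with a window (13.3%), Kbtbd13 and Ttn, against 3.84% of all genes.
Ttn: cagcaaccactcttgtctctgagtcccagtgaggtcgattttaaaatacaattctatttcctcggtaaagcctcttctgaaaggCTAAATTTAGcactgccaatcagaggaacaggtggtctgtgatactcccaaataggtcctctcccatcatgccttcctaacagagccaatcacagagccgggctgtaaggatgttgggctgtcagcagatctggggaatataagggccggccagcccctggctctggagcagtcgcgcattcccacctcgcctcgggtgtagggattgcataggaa

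**Figure D4:**
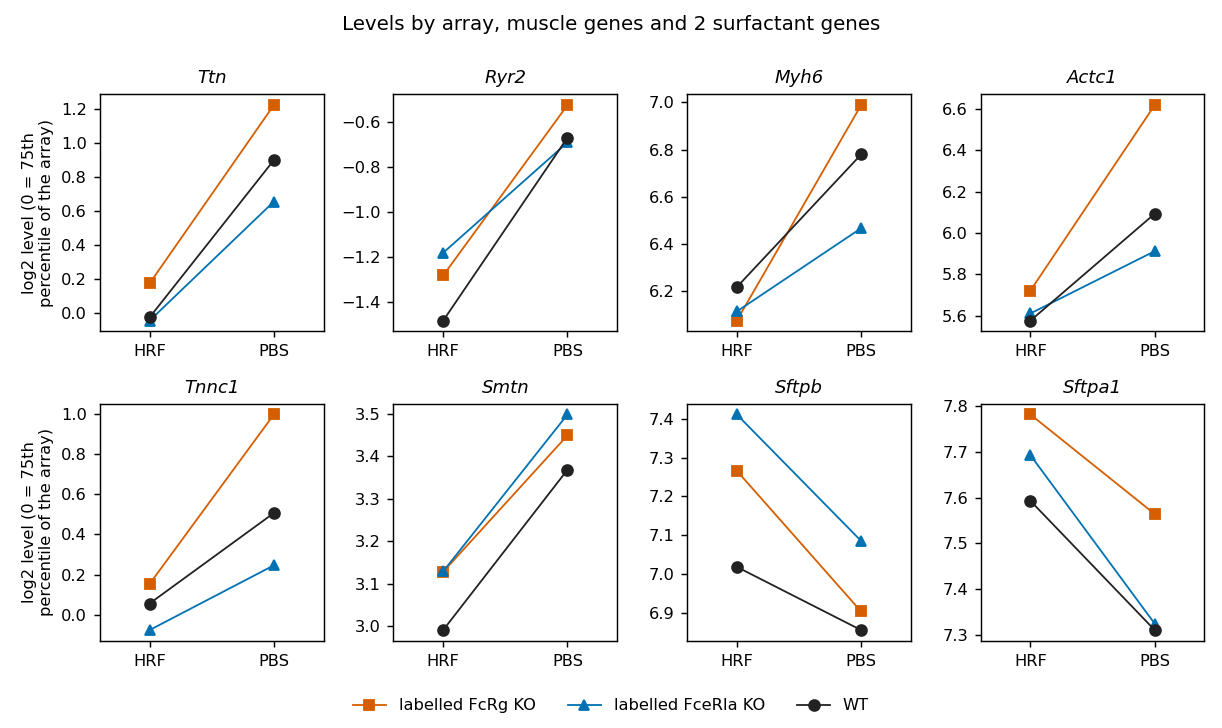
Log2 level (vertical axis, 0 at the array's 75th percentile) on the HRF arrays (left) and PBS arrays (right), with 1 line per genotype label. The 6 muscle genes are lower at HRF on every line, and the surfactant genes Sftpb and Sftpa1 are higher by 0.16 to 0.37, a direction that turns under normexp for Sftpa1 (-0.02) and with the mean of all probes for Sftpb (-0.09).

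The other 11 of the lowest genes had no common role. Mycn, a transcription factor of growth, stood at -1.76 (FcRg KO), -2.03 (FceRIa KO) and -2.29 (WT) on the HRF arrays, against -0.98, -1.30 and -1.15 on the PBS arrays of the same labels. Klf10, a transcription factor induced by transforming growth factor beta, stood at 2.13 (FcRg KO), 2.01 (FceRIa KO) and 2.15 (WT) on the HRF arrays, against 2.72, 3.04 and 2.76 on the PBS arrays of the same labels. Rarb, a retinoic acid receptor, had ratios of -0.59 (FcRg KO), -0.55 (FceRIa KO) and -0.48 (WT). Rgs2, which damps G protein signals, had ratios of -0.48 (FcRg KO), -0.53 (FceRIa KO) and -0.52 (WT). In both, the 3 ratios lay close together, and a second probe of each was lower in all 3 pairs. Afm, a plasma protein of the liver, had ratios of -3.50 (FcRg KO), -0.79 (FceRIa KO) and -0.74 (WT), far larger with the FcRg KO label than in the other pairs. That ratio rests on a dim HRF array at -6.31, against -2.81 on the PBS array of the FcRg KO label. A mean level of at least -3 leaves Afm out.

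Lists of epithelial genes that mark normal lung moved little. Of 15 alveolar and club cell genes, 8 were higher in all 3 pairs and none was lower, beside 17.7% and 21.2% of all genes, with median ratios of 0.16 (FcRg KO), 0.21 (FceRIa KO) and 0.02 (WT). Sftpb, a surfactant protein, had ratios of 0.36 (FcRg KO), 0.33 (FceRIa KO) and 0.16 (WT), and Scgb1a1, the secretoglobin of club cells, of 0.22 (FcRg KO), 0.29 (FceRIa KO) and 0.02 (WT). The WT median of this list is -0.09 with normexp background correction and quantile normalization.

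Type 2 chemokines and cytokines were higher in all 3 pairs for 10 of 14 measured genes, and none was lower, beside 17.7% and 21.2% of all genes. Median ratios were 0.35 (FcRg KO), 0.40 (FceRIa KO) and 1.72 (WT). This list and those that follow were also chosen with earlier results known, so their counts are no independent test. Il5, the cytokine that sustains eosinophils, stood at -4.59 (FcRg KO), -4.78 (FceRIa KO) and -0.92 (WT) on the HRF arrays, against -4.85, -5.68 and -4.85 on the PBS arrays of the same labels. Il4, which drives IgE production, stood at -2.45 (FcRg KO), -3.86 (FceRIa KO) and -1.63 (WT) on the HRF arrays, against -3.35, -4.19 and -3.80 on the PBS arrays of the same labels. The Il5 ratio was 0.26 (FcRg KO), 0.90 (FceRIa KO) and 3.93 (WT), and thus was shared in direction but not in size. Ccl8 had ratios of 0.88 (FcRg KO), 0.42 (FceRIa KO) and 1.90 (WT), and the decoy receptor Il13ra2 had ratios of 0.65 (FcRg KO), 0.38 (FceRIa KO) and 0.50 (WT). Ccl22, a ligand of the same receptor as Ccl17, was not shared, with ratios of -0.08 (FcRg KO), 1.70 (FceRIa KO) and 1.98 (WT).

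Alternatively activated macrophage genes were higher in all 3 pairs for 13 of 22, and none was lower, beside 17.7% and 21.2% of all genes, with median ratios of 0.54 (FcRg KO), 0.20 (FceRIa KO) and 1.20 (WT). Retnla, a secreted protein of such macrophages and of epithelium, stood at 7.78 (FcRg KO), 6.21 (FceRIa KO) and 7.74 (WT) on the HRF arrays, against 6.51, 5.76 and 6.19 on the PBS arrays of the same labels. Cd209a and Cd209d, relatives of Cd209e, had ratios of 0.43 (FcRg KO), 0.41 (FceRIa KO) and 1.96 (WT) and of 0.44 (FcRg KO), 0.26 (FceRIa KO) and 2.38 (WT). Arg1, the arginase of these macrophages, was not shared, with ratios of 3.14 (FcRg KO), -0.67 (FceRIa KO) and 2.203 (WT). The same held for Chil4, a chitinase-like protein, with ratios of 2.31 (FcRg KO), -0.002 (FceRIa KO) and 1.33 (WT).

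Neutrophil and monocyte chemokines were higher in all 3 pairs for 9 of 14 genes, and none was lower, beside 17.7% and 21.2% of all genes, with median ratios of 0.34 (FcRg KO), 2.14 (FceRIa KO) and 1.90 (WT). Cxcl1, a neutrophil attractant, and Ccl2, a monocyte attractant, were not shared, because the FcRg KO pair went the other way. Cxcl1 stood at -3.40 (FcRg KO), 1.06 (FceRIa KO) and 2.19 (WT) on the HRF arrays, against -2.64, -4.01 and -1.81 on the PBS arrays of the same labels. Ccl2 had ratios of -0.05 (FcRg KO), 3.39 (FceRIa KO) and 4.35 (WT). Ccl7 and Ccl3, which draw monocytes, were shared, with ratios of 0.41 (FcRg KO), 3.66 (FceRIa KO) and 4.77 (WT) for Ccl7 and 0.58 (FcRg KO), 2.22 (FceRIa KO) and 1.63 (WT) for Ccl3.

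**Figure D5:**
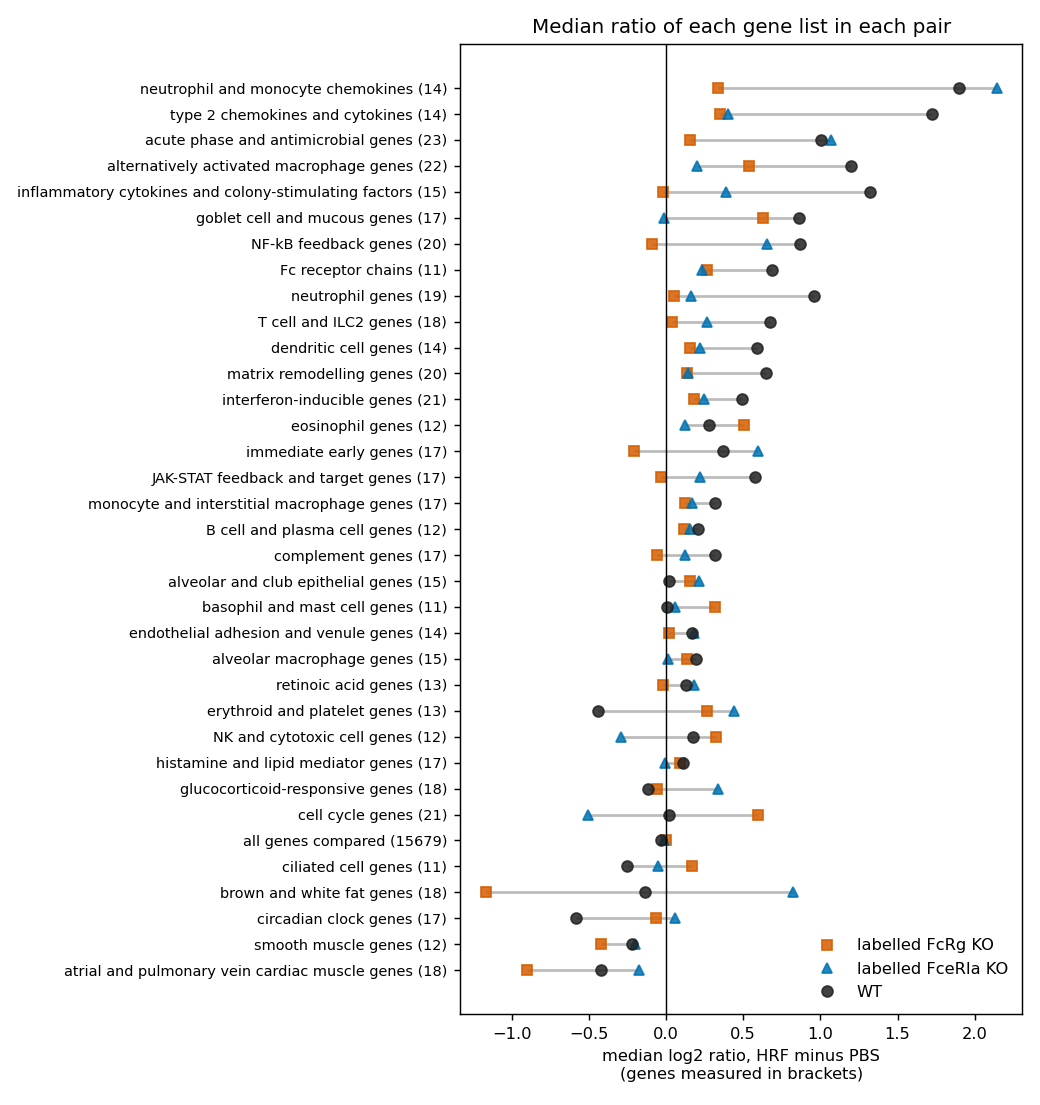
Median log2 HRF to PBS ratio (horizontal axis) of 34 gene lists and of all genes compared, with 1 marker per genotype label and the number of measured genes in brackets. Type 2, neutrophil chemokine, acute phase and alternatively activated macrophage lists lie right of 0 in all 3 pairs. Cardiac and smooth muscle lists lie left of 0. Several lists, fat and cell cycle among them, have FcRg KO and FceRIa KO markers on opposite sides of 0.

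Acute phase and antimicrobial genes were higher in all 3 pairs for 13 of 23, beside 17.7% of all genes, with medians of 0.15 (FcRg KO), 1.07 (FceRIa KO) and 1.002 (WT). Orm2, an acute phase glycoprotein, went the other way in 1 pair, with ratios of -1.13 (FcRg KO), 2.70 (FceRIa KO) and 2.13 (WT). NF-kB feedback genes were shared for 7 of 20, with medians of -0.10 (FcRg KO), 0.65 (FceRIa KO) and 0.87 (WT). Among them Nfkbia, the inhibitor of NF-kB, had ratios of 0.31 (FcRg KO), 1.02 (FceRIa KO) and 0.58 (WT), and Tnfaip3 had ratios of 0.22 (FcRg KO), 1.36 (FceRIa KO) and 1.37 (WT). Inflammatory cytokines were shared for 2 of 15, Csf1 and Il1rn, no larger a share than among all genes, while Il6 had ratios of -0.28 (FcRg KO), 4.16 (FceRIa KO) and 4.80 (WT).

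Leukocyte lists were shared to a smaller size. Among 14 dendritic cell genes, 9 were higher in all 3 pairs, beside 17.7% of all genes. Batf3, a transcription factor of dendritic cells, stood at 0.26 (FcRg KO), 0.26 (FceRIa KO) and 1.99 (WT) on the HRF arrays, against -0.13, -0.51 and -0.43 on the PBS arrays of the same labels, and the class II chains H2-Eb1 and Cd74 had smallest ratios of 0.30 and 0.24. Among 11 Fc receptor chains, 5 were higher and 1 was lower in all 3 pairs. Fcgr2b, the inhibitory IgG receptor, stood at 0.72 (FcRg KO), 0.35 (FceRIa KO) and 1.95 (WT) on the HRF arrays, against 0.28, -0.39 and -0.01 on the PBS arrays of the same labels, and Fcer1g itself had ratios of 0.18 (FcRg KO), 0.39 (FceRIa KO) and 0.69 (WT). Eosinophil genes were higher for 7 of 12, and their medians were 0.50 (FcRg KO), 0.12 (FceRIa KO) and 0.28 (WT). Ccr3, the receptor of Ccl11 and Ccl24, had ratios of 0.36 (FcRg KO), 0.53 (FceRIa KO) and 1.78 (WT). Prg2 and Epx, granule proteins of eosinophils, had their largest ratio in the FcRg KO pair, 1.57 and 1.42, with 0.11 to 0.28 in the other pairs. Of 11 basophil and mast cell genes, 3 were higher and 1 lower in all 3 pairs, beside 17.7% and 21.2% of all genes. A list this small was not tested against those shares.

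Interferon-inducible genes were higher in all 3 pairs for 10 of 21, beside 17.7% of all genes, and matrix remodelling genes for 11 of 20, with Col1a1, a collagen chain, lower in all 3 pairs. Has1, which makes hyaluronan, had ratios of 0.31 (FcRg KO), 2.42 (FceRIa KO) and 2.73 (WT), and Adamts4, a protease of matrix proteoglycans, of 0.19 (FcRg KO), 1.96 (FceRIa KO) and 3.60 (WT). Mmp12, the macrophage elastase, had ratios of 2.68 (FcRg KO), 0.04 (FceRIa KO) and 0.85 (WT). In T cell and ILC2 genes, 8 of 18 were higher and 1, Rora, was lower. Foxp3, the factor of regulatory T cells, had ratios of 0.22 (FcRg KO), 0.81 (FceRIa KO) and 1.65 (WT). Neutrophil genes were higher for 7 of 19. In 0 of the 19 did every HRF array stand above every PBS array, beside 6.55% of all genes, a share too small for 0 of 19 to tell the list apart. Monocyte and interstitial macrophage genes were higher for 6 of 17, and alveolar macrophage genes for 6 of 15 with Krt79 lower. B cell and plasma cell genes were higher for 4 of 12 with Prdm1 lower, and endothelial adhesion genes for 4 of 14. Complement genes and JAK-STAT feedback genes were each higher for 4 of 17. All these counts stand beside 17.7% of all genes, and lists this small were not tested against that share.

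Other lists held fewer shared genes, or shared genes in both directions, beside 17.7% of all genes higher and 21.2% lower in all 3 pairs. Of 21 cell cycle genes, 0 moved the same way in all 3 pairs, and their medians were 0.59 (FcRg KO), -0.51 (FceRIa KO) and 0.02 (WT). Mki67, a marker of dividing cells, stood at 1.48 (FcRg KO), 0.73 (FceRIa KO) and 1.13 (WT) on the HRF arrays, against 0.82, 1.39 and 1.17 on the PBS arrays of the same labels. Of 18 fat genes, 1 was higher and 1 was lower in all 3 pairs, with medians of -1.17 (FcRg KO), 0.82 (FceRIa KO) and -0.14 (WT). NK cell genes were higher in all 3 pairs for 1 of 12, circadian genes were higher for 3 and lower for 4 of 17, and erythroid and platelet genes were lower for 1 of 13. Per1, a clock gene that glucocorticoids also induce, had ratios of 0.60 (FcRg KO), 0.62 (FceRIa KO) and 0.43 (WT), and every HRF array stood above every PBS array. Glucocorticoid-responsive genes were split, with 5 of 18 higher and 6 lower in all 3 pairs. Immediate early genes were higher for 4 of 17, retinoic acid genes for 3 of 13 with Rarb lower, histamine and lipid mediator genes for 3 of 17 with 1 lower, and ciliated cell genes for 1 of 11. The list medians of the FcRg KO and FceRIa KO pairs had opposite signs for several lists, the fat, cell cycle and NK lists among them. In the fat list Ucp1, the heat-producing protein of brown fat, had ratios of -6.44 (FcRg KO), 2.77 (FceRIa KO) and -0.16 (WT). The part of fat tissue in the FcRg KO pair's ratios was not tested.

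Some genes were above background on every array of 1 challenge and on no array of the other, so that only a bound is given. It sets the signal of the bright array against the higher of the dim probe's own signal and the lowest signal well above background on the dim array. Of 19749 named genes, there were 3 such genes on the HRF side and 10 on the PBS side. The filter picks genes by this direction, so the direction is no result. Il13, the central type 2 cytokine, was at least 4.89-fold (FcRg KO), 1.24-fold (FceRIa KO) and 53.3-fold (WT) higher. Tarm1, a receptor of myeloid cells, was at least 1.48-fold, 1.68-fold and 11.6-fold higher in those pairs, and Henmt1 at least 1.29-fold, 1.77-fold and 2.62-fold. Of the 10 on the PBS side, 8 had a bound over 1 in every pair, led by Lhx8, at least 1.86-fold (FcRg KO), 1.89-fold (FceRIa KO) and 1.48-fold (WT) lower on the HRF arrays.

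The average HRF effect over the 3 pairs was fitted with limma, with the genotype label and the challenge as additive terms and 2 residual degrees of freedom. Of 17605 genes above background on any array, 0 were higher and 0 were lower at an adjusted p under 0.05, and the lowest limma adjusted p was 0.556. At an unadjusted p under 0.05, 641 were higher (3.64%) and 913 lower (5.19%). With 1 array per group, the residual of this fit mixes the difference of response between genotype labels with variation between mice and between arrays. The fit cannot separate these parts, because no group was repeated. An exact permutation test of 3 pairs cannot go below 0.25, nor one of 3 arrays against 3 below 0.10. The smallest limma p of all was that of Ncam2, a neural cell adhesion molecule, with a limma adjusted p of 0.556. Ncam2 stood at -8.11 (FcRg KO), -8.39 (FceRIa KO) and -5.98 (WT) on the HRF arrays, against -6.13, -6.25 and -3.62 on the PBS arrays of the same labels, with an average of -2.16 (SE 0.10), but only 3 of the 6 arrays were well above background, so it is not among the genes compared. Among the genes described, Dcstamp had an average of 0.997 (SE 0.07) and Areg of 0.82 (SE 0.07), both with a limma adjusted p of 0.556. Cd209e averaged 3.36 (SE 0.67) and Slc26a4 3.23 (SE 0.48), with the same limma adjusted p of 0.556. These fits use the ratios that ordered the genes and add no independent evidence.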

How the data were processed

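RNA of whole lung was measured on 6 one-colour Agilent arrays, 1 per group. The deposited files hold the scanner's processed intensity of each spot, background-subtracted by Feature Extraction per the file headers, and a table of log2 values made by the authors, used as an alternative only. Each array's log2 intensity was scaled to its 75th percentile over non-control spots, outlier spots were left out, spots were averaged per probe, and the probe with the highest mean stood for a gene. Of 55668 probes measured, 26051 were named through RefSeq accessions (GRCm38.p6) and 29617 were not. Precision is limited by the number of arrays. The HRF minus PBS differences of the authors' log2 table followed the scanner ratios with slopes of 0.9992 to 0.9997, so its scale and direction are known. Its column medians were 0, or 0.1 for WT PBS, and how each probe was centred is not given in the sources used here.

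HRF arrays were paired with PBS arrays by genotype label. The labels share these names but no replicate numbers. limma 3.58.1 in R 4.3.3 fitted genotype and challenge, after it had been tested on simulated data. Ratios were computed in Python 3.11.15 with numpy 2.4.6 and pandas 2.3.3 and drawn with matplotlib 3.10.9. Members and the 34 lists were chosen with earlier results of these data known. Named are the 25 highest and 20 lowest shared genes, and members of lists. As the files hold no mean signal, the normexp alternative used the median signal. Other alternatives changed the scaling, the background filter, the probe rule and the pairs included.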

Additional observations from a re-analysis of the deposited data

Results flagged for a closer look

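A total of 58 of the 15679 genes compared (0.37%) were at least 2-fold higher in 1 pair and at least 2-fold lower in another. With 1 array per group the difference between pairs was not tested for any of them. The 12 with the largest opposed ratios are given by the smaller of the 2 opposed ratios. Ucp1, the heat-producing protein of brown fat, led with 2.77, from ratios of -6.44 (FcRg KO), 2.77 (FceRIa KO) and -0.16 (WT). Gys2, a glycogen synthase, followed with 2.24, and the uncharacterised gene 2010003K11Rik with 2.07. Thrsp, a gene of fat synthesis, had 1.64. These 4 genes were lower with the FcRg KO label and higher with the FceRIa KO label. Summed fat markers moved the same way in those pairs, and their part was not tested.

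Major urinary protein genes were opposed as well, at 1.92 for Mup5, 1.91 for Mup20 and 1.48 for Mup19. All 3 were higher with the FceRIa KO label and lower in both other pairs. They are near-identical copies, and whether their probes read the same transcripts was not tested. The other opposed genes were Syt10 (1.88), Dnajb8 (1.80), Oxct2b (1.70), Dsg1c (1.57) and Rxfp3 (1.498).

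Among probes that were given no gene name, 14889 were well above background on all 6 arrays. Of these, 2 were at least 2-fold higher on the HRF array in all 3 pairs (0.0134%) and 0 were lower. The probe A_55_P2035117 had ratios of 1.76 (FcRg KO), 1.16 (FceRIa KO) and 2.32 (WT), and A_55_P1953783 had 1.76, 1.14 and 2.72 in those pairs.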

How the results depend on the processing

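The readings of 2 chosen pairs in the pair left over and their alternatives were chosen after seeing the data. Genes at least 1.5-fold higher in all 3 pairs numbered 21 with normexp, and 28 of the 33 were kept with median scaling. Normexp lost Aadac, Bcl2l15, Ccl12, Cd69, Fcer2a, Foxa3, Fxyd4, Il1rn, Ly6f, P2ry10, Slc7a2 and Spdef. Median scaling lost Ccl12, Cd69, Clec4n, Foxa3 and Noxa1. Genes at least 1.5-fold lower numbered 2 with median scaling, 1 with normexp, 3 at a mean level of at least -3 and 38 among genes above background on any array. At 2-fold, that last setting gave 12 higher genes and 7 lower. Saa3 was lost from the 6 under normexp and Cd209e at a mean level of at least -3, and all 6 were kept with the authors' table and with the mean of all probes. Genes lower in all 3 pairs numbered 1576 with median scaling and 1730 in the authors' table, where 51.8% of shared genes were higher. With each pair left out in turn, the higher count was 3826 to 4467 and the lower count 4611 to 5642. The counts at 1.5-fold were then 53 to 207 higher and 14 to 92 lower, and at 2-fold 6 to 82 higher and 2 to 11 lower. Among genes above background on any array, the correlation of the FceRIa KO and WT pairs was 0.22, and of 52 genes 2-fold higher in both labelled knockout pairs 38.5% were higher in WT. With normexp, 60.0% of 15 genes 2-fold higher in the FcRg KO and WT pairs were higher with the FceRIa KO label. The causes were not tested. limma made 0 calls in each of 11 alternatives, the fit with no genotype term (406 higher and 598 lower at an unadjusted p under 0.05) included, with a lowest adjusted p of 0.279 to 0.903. A mean level of at least -3 kept 11 of the 20 lowest genes, without Afm, Gpr143, Hjv, Kbtbd13, Klhl31, Nmrk2, Olfr738, Pla2g2f and Rspo4. That level kept 27 of the 33, without Aadac, Bcl2l15, Cd209e, Dcstamp, Foxa3 and Il1rn. No sign changed among the 25 highest and 20 lowest genes under any setting that measured them. These genes were picked for large ratios in the same data, which leaves little room for a change of sign, so this is no test. Of all 179 named genes, 32 changed sign under at least 1 setting, as did 11 of 102 list medians.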
